A study of Mus musculus with 5 samples.

Results

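Myofibre fragments in which Myh1 or Myh2 was the dominant myosin heavy chain, the IIx/IIa fragments, were 275 of 50460 retained droplet barcodes (0.545%) in tibialis anterior muscle of aged mice. Barcodes were retained when they showed 200 genes or more and no more than 10% of their UMIs (unique molecular identifiers, 1 per captured transcript) were mitochondrial. A barcode was called a fibre fragment when Ckm, Acta1, Atp2a1, Tnnc2, Tnnt3, Pvalb, Mylpf and Eno3 together made up at least 10% of its UMIs and Myh1, Myh2, Myh4 and Myh7 together had at least 5 UMIs. Fragments with at least 60% of those heavy chain UMIs from Myh1 plus Myh2 were taken as IIx/IIa, and those with at least 60% from Myh4 as IIb. Of 1085 fragments typed in this way, 275 were IIx/IIa (25.35%), 771 were IIb, 39 had no dominant chain and 0 were Myh7-dominant. The fragments were thus chosen by their own UMIs of the heavy chain, fibre and mitochondrial genes, whose values are given as description, with no test.

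The tibialis anterior, a fast hind-limb muscle, had been taken from female C57BL/6 mice aged 26 months. The frail group (2 libraries, frail 1 and 2) had a frailty index, a score of accumulated deficits, of at least 0.18, and the control group (3 libraries, control 1 to 3) had an index under 0.18. The series text counts 2 frail and 3 control mice, gives no treatment or transgene for either group, and sets frailty beside sarcopenia, the loss of muscle with age. RNA was counted with 10x Genomics Chromium 3′ chemistry, and the submitters describe both a digested suspension of whole cells and sorted nuclei, so fragment is used here for a barcode rich in fibre transcripts.

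Skeletal muscle fibres contract with different myosin heavy chains, and the chain a fibre makes largely sets its speed. In rodents, Myh7 marks slow type I fibres, Myh2 fast oxidative IIa fibres, Myh1 the intermediate IIx fibres and Myh4 the fastest, glycolytic IIb fibres. IIa and IIx fibres hold more mitochondria and resist fatigue better than IIb fibres, and neighbouring types grade into each other through hybrid fibres that make a pair of chains.

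The fast heavy chain genes lie side by side on chromosome 11, and their promoters are shown because the level of each sorted the fragments. In GRCm38 (GENCODE vM21), Myh2 (ENSMUSG00000033196) spans chr11:67171027-67197517, Myh1 (ENSMUSG00000056328) chr11:67200052-67224575 and Myh4 (ENSMUSG00000057003) chr11:67238029-67260446, all on the plus strand. The sequences below are RefSeq promoters on GRCm38.p6 for these genes and for Myoz2, a Z-disc protein gene that rose strongly in IIx/IIa fragments. Each runs from 250 bases before to 50 bases after the start annotated in RefSeq. For Myh1 and Myh4 the RefSeq start differs from the start of the GENCODE span above. Motif distances are counted from the RefSeq start. Capitals mark E-boxes (CANNTG, bound by MyoD-family factors), MEF2 motifs and the CArG box of SRF, searched on both strands. The windows are chr11:67170777-67171076 for Myh2, chr11:67199852-67200151 for Myh1, chr11:67237562-67237861 for Myh4, each on the plus strand, and chr3:123034938-123035237 on the minus strand for Myoz2.
Myh2: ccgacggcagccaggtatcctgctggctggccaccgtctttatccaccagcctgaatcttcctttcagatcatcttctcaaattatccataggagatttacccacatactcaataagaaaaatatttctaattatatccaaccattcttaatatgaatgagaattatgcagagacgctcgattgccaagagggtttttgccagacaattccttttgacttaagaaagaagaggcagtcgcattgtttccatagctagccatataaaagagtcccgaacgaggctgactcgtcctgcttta
Myh1: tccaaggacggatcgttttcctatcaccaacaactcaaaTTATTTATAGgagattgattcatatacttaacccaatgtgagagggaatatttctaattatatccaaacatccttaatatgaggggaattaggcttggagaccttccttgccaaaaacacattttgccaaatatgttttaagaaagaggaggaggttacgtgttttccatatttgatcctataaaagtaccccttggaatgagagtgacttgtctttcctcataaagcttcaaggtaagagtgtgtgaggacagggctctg
Myh4: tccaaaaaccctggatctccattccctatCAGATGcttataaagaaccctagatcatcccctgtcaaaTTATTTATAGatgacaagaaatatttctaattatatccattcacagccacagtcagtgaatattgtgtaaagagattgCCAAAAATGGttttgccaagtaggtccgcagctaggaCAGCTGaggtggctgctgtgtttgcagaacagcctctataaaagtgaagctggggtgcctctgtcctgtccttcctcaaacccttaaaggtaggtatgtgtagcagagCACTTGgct
Myoz2: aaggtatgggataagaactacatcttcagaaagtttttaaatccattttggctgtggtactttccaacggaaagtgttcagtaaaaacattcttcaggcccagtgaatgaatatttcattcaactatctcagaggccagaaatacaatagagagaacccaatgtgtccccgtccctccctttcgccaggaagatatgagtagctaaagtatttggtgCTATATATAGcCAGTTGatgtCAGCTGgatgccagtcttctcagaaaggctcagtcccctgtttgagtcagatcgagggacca
The Myh1 window held 1 MEF2 motif, first base 211 before the start, and the Myh4 window held the same 10 letters 182 before the start with a CArG box and 3 E-boxes. The Myoz2 window held a MEF2 motif 33 before the start and 2 E-boxes, and none of these letters was found in the Myh2 window. The motif of the oestrogen-related receptors (TNAAGGTCA, both strands), which regulate mitochondrial genes, was found in none of the 4. Among 32851 promoters of the same length, 3.19% held a MEF2 motif, 1.63% a CArG box, 1.28% the receptor motif and 72.3% an E-box. A match describes the letters only.

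The 5 libraries held 68170531 to 90942121 UMIs. Retained barcodes numbered 9351 in frail 1, 10517 in frail 2, and 8650, 9854 and 12088 in control 1, 2 and 3. Any pair of libraries shared 27 to 49 barcode sequences, of which 0 or 1 per pair belonged to a IIx/IIa fragment. Control 2 supplied 63.0% of the control IIx/IIa fragments, so values are given by library.

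IIx/IIa fragments were scarce in the frail libraries, as was every kind of fibre fragment. They numbered 3 of 9351 retained barcodes in frail 1 (0.0321%, 95% Wilson interval 0.0109% to 0.0943%) and 2 of 10517 in frail 2 (0.0190%, 0.00522% to 0.0693%). They numbered 46 in control 1 (0.532%, 0.399% to 0.709%), 170 in control 2 (1.73%, 1.49% to 2.00%) and 54 in control 3 (0.447%, 0.343% to 0.582%). Both frail libraries lay under every control library. Mean shares were 0.0256% ± 0.00924 in frail (SD, n = 2) and 0.901% ± 0.715 in control libraries (SD, n = 3), a difference of -0.876 percentage points (exact two-sided permutation test over libraries, p = 0.3). The design allows no p under 0.1, and the rule was written knowing that most of these fragments lie in controls. IIb fragments numbered 0 and 18 in frail 1 and 2, against 216, 459 and 78 in control 1, 2 and 3. All barcodes with at least 10% fibre genes, typed or not, made up 0.118% and 0.723% of retained barcodes in frail 1 and 2, and 3.98%, 8.64% and 2.48% in control 1, 2 and 3. Fragments that met the rule but for the mitochondrial limit numbered 0 in each frail library and 4, 7 and 3 in control 1, 2 and 3. Whether the yield of fragments from the tissue preparation moved with frailty was not tested. Intervals cover counting error only.

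**Figure D1:**
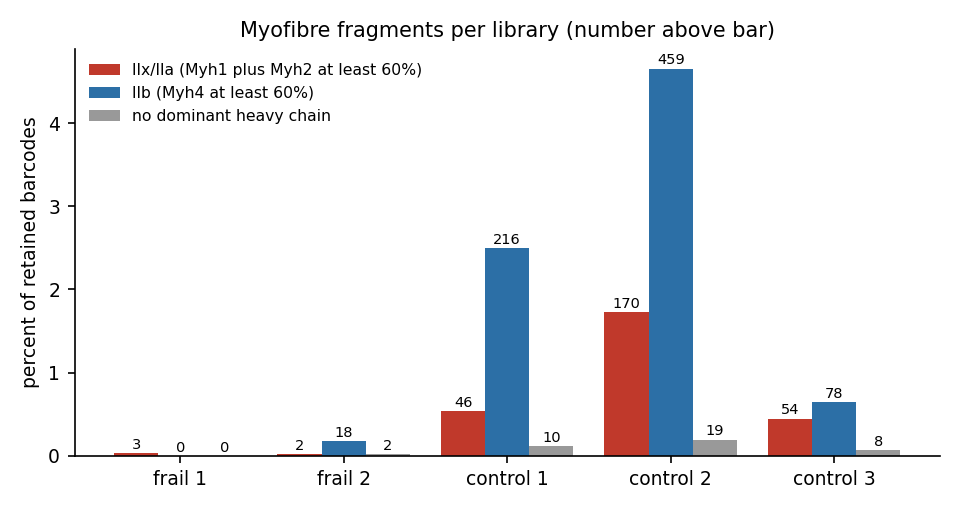
Fibre fragments as a percent of retained barcodes in each library, with the number of barcodes above each bar; red is IIx/IIa, blue IIb and grey fragments with no dominant chain. IIx/IIa fragments number 3 and 2 in the frail libraries and 46, 170 and 54 in the control libraries.

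The mix of fibre types among typed fragments gave no stable difference. IIx/IIa fragments were 3 of 3 typed fragments in frail 1 and 2 of 22 in frail 2 (9.09%, Wilson interval 2.53% to 27.8%). They were 46 of 272 in control 1 (16.9%, 12.9% to 21.8%), 170 of 648 in control 2 (26.2%, 23.0% to 29.75%) and 54 of 140 in control 3 (38.6%, 30.9% to 46.8%). The intervals of the control libraries did not overlap, with control 3 highest and control 1 lowest, and the frail values lay on both sides of them. The frail mean of 54.5% ± 64.3 (SD, n = 2) exceeded the control mean of 27.2% ± 10.9 (SD, n = 3) by 27.3 percentage points (exact two-sided permutation test, p = 0.7), but the difference was -18.15 without frail 1, whose value rests on 3 fragments. The biology below is therefore that of the 270 control fragments, against the 753 IIb fragments of the same libraries.

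Nearly all IIx/IIa fragments were led by Myh1, the IIx chain. In the control IIx/IIa fragments together, Myh1 gave 85.4% of 7176 heavy chain UMIs, Myh2 8.39% and Myh4 6.20%, with no Myh7 UMI. Myh1 gave 84.8%, 86.9% and 77.0% of heavy chain UMIs in control 1, 2 and 3, Myh2 3.78%, 9.12% and 12.2%, and Myh4 11.4%, 3.99% and 10.8%. Myh1 led in every library, and Myh2 was lowest in control 1. In the IIb fragments, Myh4 gave 95.9% of 26784 heavy chain UMIs, Myh1 4.06%, and Myh2 2 UMIs.

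A minority of the IIx/IIa fragments carried Myh2. It had at least 1 UMI in 49 of 270 control fragments (18.1%), against 2 of 753 IIb fragments (0.266%). Barcodes with under 1% fibre genes carried a Myh2 UMI in 0.146%, 0.454% and 0.412% of cases in control 1, 2 and 3, at a median depth of 7156, 6443 and 6828.5 UMIs, against a median of 3438 UMIs in the IIx/IIa fragments. Myh2 exceeded Myh1 in 16 fragments, 0 of 46 in control 1, 10 of 170 in control 2 and 6 of 54 in control 3, and 4 of these had no Myh1 UMI. The rule itself fixed the high share of Myh1 plus Myh2, and within it the group was mostly Myh1-led. Myh4 had a UMI in 110 of the 270 fragments (40.7%), a share above the 7.30%, 16.4% and 2.71% of barcodes with under 1% fibre genes in control 1, 2 and 3.

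Most fragments sat at an end of the heavy chain scale. Among all 1085 typed fragments, 609 had under 5% of heavy chain UMIs from Myh1 plus Myh2 and 190 had at least 95%, of which 164 had 100%. Between these ends, 116 fragments had 20% to under 60%. The median number of heavy chain UMIs was 13 in control IIx/IIa and 17 in control IIb fragments. Shares from so few UMIs are coarse, so a share at an end need not mean a fibre with 1 chain. At the 60% limit, 17 fragments lay from 60% to under 70% and 19 from 50% to under 60%. At the UMI limit, 21 IIx/IIa fragments had exactly 5 heavy chain UMIs and 26 barcodes had 4, while 9 lay just inside the 10% fibre gene limit (10% to under 11%) and 8 just outside (9% to under 10%). The 3 heavy chain messages are alike in sequence: of the 31-base words in the last 500 bases of the longest Myh1 transcript, 21.9% also occur in Myh2 and 12.6% in Myh4. How the authors' counting treated reads from such stretches is not given in the sources used here, so the counts of these genes are uncertain there.

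**Figure D2:**
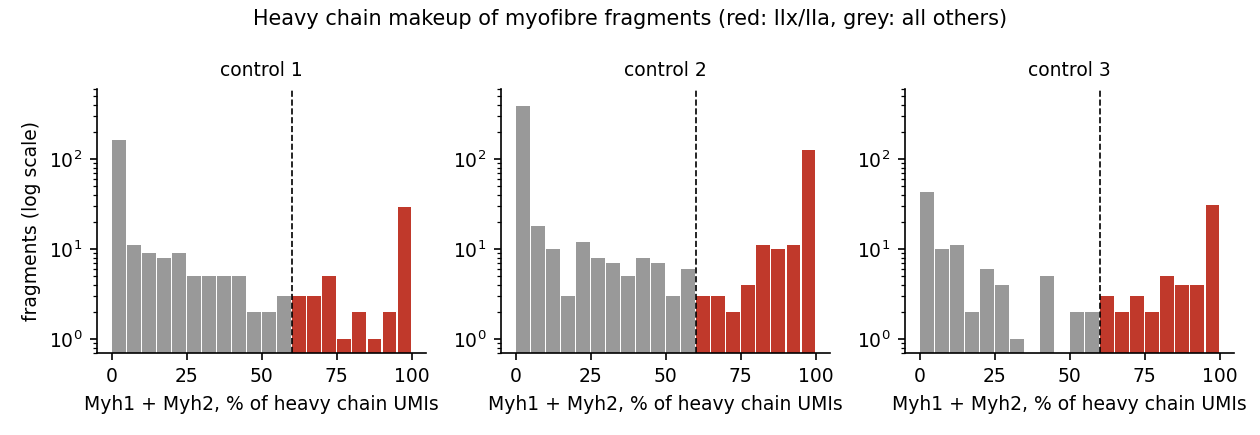
Number of typed fibre fragments (log axis) by the share of heavy chain UMIs from Myh1 plus Myh2, in bins of 5 percentage points, for control 1, 2 and 3; the dashed line is the 60% limit. In each control library the highest bins are at the ends of the scale.

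The fibre genes of the rule were present in every library's IIx/IIa fragments, and Pvalb, a calcium-buffering protein of the fastest fibres, stood lowest relative to IIb. Pvalb made up 0.271%, 0.147% and 0.170% of UMIs in the IIx/IIa fragments of control 1, 2 and 3, against 0.642%, 0.603% and 0.296% in the IIb fragments. Ckm, the muscle creatine kinase, made up 2.11%, 2.13% and 2.55%, against 2.91%, 2.72% and 2.63%. Acta1, skeletal actin, made up 5.47%, 6.14% and 5.49%, against 5.59%, 5.55% and 5.30%. Pvalb, Ckm, Atp2a1, Tnnc2, Mylpf and Eno3 were lower in IIx/IIa than in IIb in each of the 3 libraries, and Acta1 and Tnnt3 were not. The fibre genes of the rule together had medians of 17.55%, 17.76% and 18.44% of UMIs in IIx/IIa fragments of control 1, 2 and 3. In the IIb fragments these medians were 20.83%, 21.23% and 21.02%.

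The order of the types by fragment size varied with the library. Control IIx/IIa fragments had a median of 3438 UMIs and 1097 genes, against 2964 UMIs and 955 genes in IIb fragments and 6698 UMIs in the other retained control barcodes. By library, the medians were 3406, 3666 and 3246 UMIs in IIx/IIa fragments of control 1, 2 and 3, against 3796, 2690 and 2698 UMIs in IIb fragments, so that control 1 had the other order. Malat1, a nuclear RNA, made up 0.0648%, 0.207% and 0.221% of UMIs in IIx/IIa fragments of control 1, 2 and 3, 0.185%, 0.138% and 0.533% in IIb fragments, and 2.02%, 2.01% and 3.21% in the other retained barcodes. Markers of 8 other cell types (35 genes) summed to 0.0932%, 0.156% and 0.269% of UMIs in IIx/IIa fragments, 0.252%, 0.238% and 0.497% in IIb fragments and 2.79%, 3.30% and 3.11% in the other barcodes. Of these markers 20 were abundant enough to test between fibre types, 7 higher and 13 lower in IIx/IIa, with a median log2 change of -0.79. Those that fell were Dcn and Gsn of fibro-adipogenic cells, Rgs5 of mural cells and Fmod of tendon cells, and none rose. The endothelial markers leaned the other way: 3 of 4 tested stood higher (median log2 change 0.40) and none passed, and they made up 0.0219%, 0.00820% and 0.00879% of UMIs in IIx/IIa fragments of control 1, 2 and 3, against 0.0118%, 0.00789% and 0.00661% in IIb fragments. The part of other cells' RNA in the results that follow was not tested, beyond leaving out fragments rich in it.

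The IIx/IIa fragments of the control libraries were compared with the IIb fragments of the same libraries, and genes of oxidative metabolism were among those that rose. UMIs were summed per library and type, and 5046 genes outside the rule were tested with edgeR's quasi-likelihood test with the library as a block and Benjamini-Hochberg adjustment. At an adjusted p under 0.05, 136 genes were higher (2.7%) and 65 lower (1.29%) in IIx/IIa, together 3.98% of those tested, and the median log2 change of all genes was -0.016. Of the 201 genes, 199 had the same sign in each of the 3 libraries, against 35.7% of all genes tested. A test with the library as a block favours such genes, so this agreement is largely set by the selection and lends the calls no support. DESeq2 called 90 genes. Without control 1 the edgeR count was 3, and of the 201 genes Ldhb and Myoz2 alone remained past the threshold, and without control 3 the count was 418. The 201 genes kept their direction in each of these settings, which use the same sums or a part of them.

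The largest rise among the genes named by rule was in Ldhb, the heart-type subunit of lactate dehydrogenase, which favours the use of lactate. Ldhb had 228.5, 557.9 and 215.3 CPM (UMIs per 1000000 UMIs of the tested genes, TMM-scaled) in IIx/IIa fragments of control 1, 2 and 3, against 18.1, 12.6 and 16.3 CPM in IIb fragments (log2 change 4.53, SE 0.35, edgeR adjusted p = 7.84e-06). Its partner Ldha, the muscle-type subunit, had 2572, 1488 and 4010 CPM, against 4149, 2489 and 4756 CPM (log2 change -0.56, SE 0.15, adjusted p = 0.0389). Ldhb was thus higher and Ldha lower in IIx/IIa in every control library, with no overlap between the types for Ldhb. Myoz2, calsarcin-1, a Z-disc protein that binds calcineurin, had 177, 616 and 249.0 CPM, against 21.5, 32.2 and 8.14 CPM (log2 change 3.96, SE 0.29, adjusted p = 2.5e-07).

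Myoglobin and the heart-type fatty acid binding protein rose as well. Mb, which stores oxygen, had 12200, 10980 and 8953 CPM in IIx/IIa fragments of control 1, 2 and 3, against 2264, 2357 and 4094 CPM in IIb fragments (log2 change 1.93, SE 0.24, edgeR adjusted p = 0.00489). Fabp3, which carries fatty acids in the cytosol, had 2056, 3154 and 1152 CPM, against 504.5, 830.7 and 499.5 CPM (log2 change 1.73, SE 0.175, adjusted p = 9.64e-06). Neither gene overlapped between the types. The other genes named by rule that rose were Smtnl1, a smoothelin-like contraction regulator (log2 change 2.17), Atp1b1, a subunit of the sodium pump (2.00), Fhl1, a LIM scaffold of the sarcomere (1.98), Egln3, an oxygen-sensing prolyl hydroxylase (1.91), Actn2 (1.85), Slc66a2 (1.81), Bcap31, an endoplasmic reticulum membrane protein (1.65), and Coq8a, needed for coenzyme Q synthesis (1.64).

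**Figure D3:**
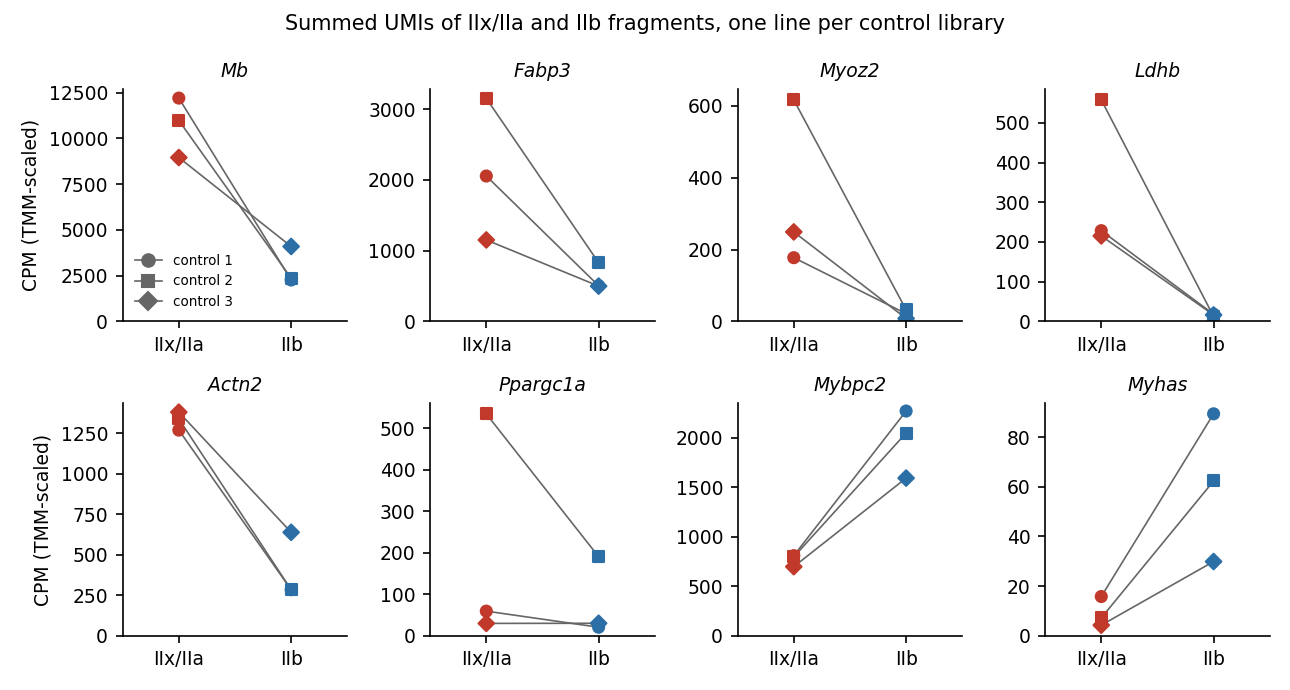
TMM-scaled CPM of 8 genes in the summed IIx/IIa (left, red) and IIb (right, blue) fragments, a line for each control library. Mb, Fabp3, Myoz2, Ldhb and Actn2 are higher and Mybpc2 and Myhas lower in IIx/IIa in all 3 libraries, and Ppargc1a is level in control 3.

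The fast sarcomere list, which also holds slow-type Mybpc1 and genes of all fibre types such as Actn2, moved in both directions. Of 26 genes of this list tested, 13 stood higher and 13 lower in IIx/IIa (median log2 change 0.04). In this list 6 rose and 3 fell, where 2.7% and 1.29% of all genes tested did. Its balance is thus not that of fast isoforms alone. Actn2, the alpha-actinin of all fibre types, had 1269, 1338 and 1380 CPM in IIx/IIa fragments of control 1, 2 and 3, against 283.9, 283.6 and 638 CPM in IIb fragments (log2 change 1.85, SE 0.21, edgeR adjusted p = 3.22e-04). Actn3, the alpha-actinin of fast glycolytic fibres, had 1588, 1617 and 2858 CPM, against 6292, 6854 and 4126 CPM (log2 change -1.55, SE 0.36, adjusted p = 0.127). Actn3 was lower in IIx/IIa in each library but did not pass the test. Mybpc2, the fast myosin-binding protein C, fell to 808, 796 and 696.5 CPM in IIx/IIa, against 2268, 2046 and 1591 CPM in IIb (log2 change -1.35, SE 0.15, adjusted p = 4.41e-05). Mybpc1, the slow-type protein of the same family, rose by 0.62 on the log2 scale (adjusted p = 0.027). Of the other genes, the Z-disc and stress-fibre proteins Xirp1 (log2 change 1.59) and Myot (0.67) rose with Smtnl1 and Myoz2, and tropomyosin Tpm1 (-0.58) and the myosin kinase Mylk4 fell. Mylk4 had 315, 52.3 and 295.5 CPM, against 623, 149 and 431.6 CPM. Myl1, the fast essential light chain, was level (log2 change -0.03, SE 0.14, adjusted p = 0.96).

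Nuclear genes of the respiratory chain stood higher in IIx/IIa fragments as a whole set. Of 58 oxidative phosphorylation genes tested, 58 stood higher in IIx/IIa and 30 passed the test, with a median log2 change of 0.56, against -0.016 over all genes tested. They stood higher for 58 of 58 in control 1, 58 of 58 in control 2 and 52 of 58 in control 3, with library medians of 0.72, 0.70 and 0.27. Over all genes tested, 50.1%, 48.9% and 49.4% stood higher in control 1, 2 and 3, and 2.7% passed as higher. The succinate dehydrogenase subunits Sdhb (log2 change 1.04, SE 0.19, edgeR adjusted p = 0.00712), Sdha (0.84) and Sdhc (0.80) of complex II were among the largest. In complex I Ndufa9 rose by 0.94, in complex III Uqcrc2 by 0.77 and Cyc1 by 0.73, in complex IV the muscle isoforms Cox6a2 by 0.74 and Cox7a1 by 0.70, and in ATP synthase Atp5a1 by 0.70. The number past the threshold was 0 without control 1, 6 without control 2 and 52 without control 3, while 57, 56 and 58 of 58 stood higher. It was also 6 when fragments with over 0.5% markers of other cells were left out, 5 with no filter on low counts, 2 with at least 10 heavy chain UMIs and 0 with no library block. With fibre genes at 20% or more it was 0 of 57, with 55 higher and a median of 0.30.

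The mitochondrially encoded transcripts did not follow that order. They made up 1.52%, 1.22% and 1.19% of summed UMIs in IIx/IIa fragments of control 1, 2 and 3, against 1.74%, 1.39% and 1.396% in IIb fragments. With no mitochondrial limit the values were 1.68%, 1.35% and 1.43%, against 2.12%, 1.68% and 1.52%. In each of the 3 libraries the IIx/IIa fragments were the lower ones. The median over fragments was 2.86%, 1.66% and 1.74% in IIx/IIa, against 2.38%, 2.09% and 2.01% in IIb, so that control 1 has the other order there.

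Genes of fatty acid use stood higher in IIx/IIa fragments too. Of 30 genes of fatty acid uptake and oxidation tested (31 listed), 30 stood higher in IIx/IIa and 17 passed the test, with a median log2 change of 0.83. In control 1, 2 and 3, 29, 30 and 27 of 30 stood higher, against 50.1%, 48.9% and 49.4% of all genes tested. The share of all genes tested that passed as higher was 2.7%. Plin5, which coats lipid droplets at mitochondria, rose by 1.82 (SE 0.40, edgeR adjusted p = 0.014) and Lpl, the lipase that frees fatty acids from lipoproteins, by 1.52 (SE 0.28, adjusted p = 0.0108). The transporters Slc27a1 and Cd36 rose by 1.38 and 0.86. Endothelial cells also express Cd36, Lpl and the listed Fabp4 (log2 change 0.38, adjusted p = 0.46), and the endothelial markers, given above, were higher in IIx/IIa in each control library. Their part in these values was not tested. Of the beta-oxidation enzymes, the dehydrogenases Acadvl, Acadl, Acads and Acadm rose by 1.23, 1.04, 0.93 and 0.81, and the trifunctional protein subunit Hadha by 1.17. Without control 1, 2 and 3 in turn, 0, 5 and 20 genes passed and 29, 29 and 30 of 30 stood higher. With fibre genes at 20% or more, 1 of 25 passed, all 25 stood higher and the median was 0.46, and with no library block 0 of 30 passed, with 8 of 30 at 10 or more heavy chain UMIs.

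All 18 genes tested of the citric acid cycle and its aspartate shuttle stood higher, with a median log2 change of 0.57. In control 1, 2 and 3, 18, 18 and 16 of 18 stood higher, against 50.1%, 48.9% and 49.4% of all genes tested. Where 2.7% of all genes tested rose, 5 of the 18 did. Among these were the aminotransferases Got1 (log2 change 1.25, SE 0.18, edgeR adjusted p = 5.65e-04) and Got2 (1.03), and Mdh1 (0.99) and Idh3b (0.60). Idh2, the NADP-linked mitochondrial isocitrate dehydrogenase, had 272, 566 and 169 CPM in IIx/IIa fragments of control 1, 2 and 3, against 64.5, 50.8 and 84.2 CPM in IIb fragments (log2 change 2.37, SE 0.49, adjusted p = 0.0727). Its types did not overlap, although it missed the threshold. Without control 1 none of the 18 genes passed, and all 18 stood higher. With fibre genes at 20% or more 2 passed, 16 of 18 stood higher and the median was 0.34, and 1 passed both with at least 10 heavy chain UMIs and with no library block.

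**Figure D4:**
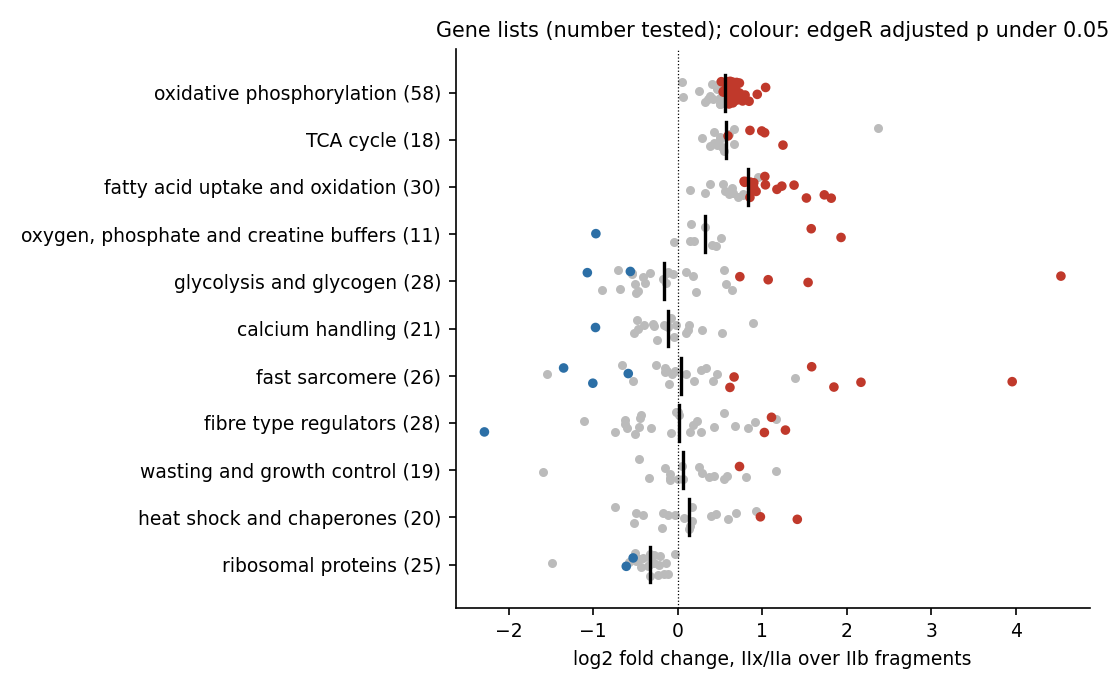
Log2 change, IIx/IIa over IIb, of each tested gene of 11 lists, with the number tested in brackets; red and blue points passed edgeR's adjusted threshold of 0.05 and black bars are list medians. The medians are 0.56 for oxidative phosphorylation, 0.57 for the citric acid (TCA) cycle, 0.83 for fatty acid genes, -0.16 for the glycolysis and glycogen list and -0.33 for ribosomal proteins.

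Genes of a joint list of glycolysis and glycogen moved in both directions. Of 28 tested, 10 stood higher and 18 lower in IIx/IIa (median log2 change -0.16), 4 rose and 2 fell. Over all genes tested, 2.7% rose and 1.29% fell. The genes that rose were Ldhb, glycogen synthase Gys1 (log2 change 1.07, SE 0.21, edgeR adjusted p = 0.00979), Ugp2, which makes UDP-glucose for glycogen (0.74), and Pfkfb1, a bifunctional regulator of glycolytic flux (1.54). Those that fell were Ldha and Gpd1, the cytosolic glycerol-3-phosphate dehydrogenase (-1.07, SE 0.24, adjusted p = 0.0158). The glycolytic enzymes Pkm (-0.47), Pgk1 (-0.41), Aldoa (-0.39), Pgam2 (-0.14), Gapdh (-0.11) and Tpi1 (-0.06) stood lower without passing. Hk2 (0.64), Gpi1 (0.18) and Pfkm (0.10) stood higher, also without passing. Among 11 genes of oxygen, phosphate and creatine buffering, Mb and the mitochondrial creatine kinase Ckmt2 (1.58, SE 0.32, adjusted p = 0.0446) rose, and AMP deaminase Ampd1 (-0.97, SE 0.22, adjusted p = 0.0156) fell. Of 21 calcium handling genes, 6 stood higher and 15 lower in IIx/IIa. The libraries differed in direction, with 4, 10 and 14 of 21 higher in control 1, 2 and 3. Casq1, the fast calsequestrin, had a log2 change of -0.48 (adjusted p = 0.124).

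Of 28 fibre type regulators tested (39 listed), 15 stood higher and 13 lower, with a median log2 change of 0.01. Among them 3 rose and 1 fell, where 2.7% and 1.29% of all genes tested did. Ppargc1a (PGC-1alpha), the coactivator of mitochondrial biogenesis, had 59.1, 534 and 29.5 CPM in IIx/IIa fragments of control 1, 2 and 3, against 20.4, 190 and 29.9 CPM in IIb fragments (log2 change 1.27, SE 0.28, edgeR adjusted p = 0.0133). It was level in control 3 and about as much higher in control 2 as in control 1 (log2 ratios 1.48 and 1.42), although its level in control 2 was far above the other libraries in both types. Rcan1, a calcineurin target and inhibitor, rose by 1.11 (SE 0.24, adjusted p = 0.0133), and Vgll2, a TEAD cofactor of slow-type programs in mice, by 1.03 (SE 0.21, adjusted p = 0.0103). Myog, myogenin, fell by 2.29 (SE 0.50, adjusted p = 0.02) with 0, 19 and 4 UMIs in IIx/IIa, against 7, 271 and 3 UMIs in IIb, so the fall rests mainly on the IIb fragments of control 2. Tbx15, a glycolytic fibre factor, had a log2 change of -0.43 (adjusted p = 0.413).

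In lists of muscle loss and stress, 1 or 2 genes each passed, where 3.98% of all genes tested did. Of 19 tested genes of wasting and growth control (27 present), Trim63, the ubiquitin ligase MuRF1, alone passed: it had 520, 991 and 228 CPM in IIx/IIa fragments of control 1, 2 and 3, against 293, 715 and 114 CPM in IIb fragments (log2 change 0.73, SE 0.18, edgeR adjusted p = 0.027). Of 6 tested neuromuscular junction and denervation genes (25 present), Gadd45a alone passed, with 23.6, 53.5 and 63.3 CPM, against 80.3, 447.6 and 95.02 CPM (log2 change -2.16, adjusted p = 0.0325). The small heat shock proteins Hspb7 (log2 change 1.42, SE 0.24, adjusted p = 0.00871) and Hspb6 (0.98, adjusted p = 0.0175) rose among 20 chaperone genes, and Sod2, the mitochondrial superoxide dismutase (0.64, SE 0.17, adjusted p = 0.0372), among 19 antioxidant genes. Of 7 tested genes of myokines and signals, Dcn alone passed, and it fell.

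Ribosomal protein genes stood lower in IIx/IIa fragments for 25 of 25 tested, with a median log2 change of -0.33, and Rpl10 was among those that fell. By library, 0, 0 and 3 of the 25 ribosomal protein genes stood higher in control 1, 2 and 3. The shares over all genes tested were 50.1%, 48.9% and 49.4%. Near-identical processed copies of such genes exist, so their counts are uncertain. Of 5 nuclear RNAs tested none passed. Slow fibre genes were too rare to test apart from 2 of 10, neither of which passed. Myl2, the slow regulatory light chain, had 0, 95 and 2 UMIs in the IIx/IIa fragments of control 1, 2 and 3, and 94 of the 95 lay in Myh2-led fragments, 65 in 1 fragment. Tnnt1, slow troponin T, had 0, 40 and 0 UMIs, with 21 in 1 Myh2-led fragment.

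The genes named by rule that fell were led by Actc1, Aif1l and Myhas. Actc1, cardiac actin, had 27.6, 5.95 and 29.5 CPM in IIx/IIa fragments of control 1, 2 and 3, against 103, 157 and 111 CPM in IIb fragments (log2 change -3.03, SE 0.46, edgeR adjusted p = 0.005). Its coding sequence is very like that of Acta1, whose messages are abundant in these fragments, so its counts are uncertain. Myhas (ENSMUSG00000085348, chr11:67211256-67237573, minus strand), an antisense RNA between Myh1 and Myh4, had 15.8, 7.14 and 4.22 CPM, against 89.4, 62.3 and 29.9 CPM (log2 change -2.85, SE 0.39, adjusted p = 3.39e-04). Its start lies inside the Myh4 promoter window printed above, and its other end overlaps Myh1. Whether the authors' counting used strand is not given in the sources used here. Aif1l, an actin-binding protein (log2 change -2.96, adjusted p = 0.0112), and Gadd45a were highest in the IIb fragments of control 2, with 379 and 819 UMIs.

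The other genes named by rule that fell had log2 changes of -2.21 to -1.69. They were the tendon factor Scx (-2.21), Phlda1 (-1.88), Zfp467 (-1.76), the galectin Lgals3 (-1.76), the spermine oxidase Smox (-1.74), the ligand Wnt4 (-1.74), Ccdc6 (-1.71) and the matrix protein Fmod (-1.69). Wnt4 had 11.8, 22.6 and 8.44 CPM in IIx/IIa fragments of control 1, 2 and 3, against 57.7, 55.2 and 59.7 CPM in IIb fragments (SE 0.35, edgeR adjusted p = 0.0108), with no overlap. Scx and Fmod are known from tendon cells, and Thbs4, another tendon marker, had a log2 change of -1.19 (adjusted p = 0.0774). Ankrd1, a stretch-responsive titin-binding protein, varied by library: it had 725, 482 and 1178 CPM in IIx/IIa, against 237.5, 2040 and 209 CPM in IIb (log2 change 0.71, SE 1.51, adjusted p = 0.906). It was higher in IIx/IIa in control 1 and 3 and lower in control 2.

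Within the IIx/IIa fragments, the few led by Myh2 had higher Ldhb, Fabp3 and Myoz2 and lower Actn3, Mybpc2 and Myl1 than those led by Myh1. The comparison used 10 Myh2-led fragments of control 2 and 6 of control 3, since control 1 had none, against the Myh1-led fragments of the same libraries. Of 1995 genes tested with edgeR, 5 were higher and 4 lower in Myh2-led fragments at an adjusted p under 0.05 (0.451% in all, 0.251% higher and 0.201% lower), and 197 had an unadjusted p under 0.05. Fabp3 had 10450 and 4672 CPM in Myh2-led fragments of control 2 and 3, against 2526 and 1020 CPM in Myh1-led fragments (log2 change 2.12, SE 0.24, edgeR adjusted p = 0.00798). Ldhb had 1995 and 1446 CPM, against 427 and 135 CPM (log2 change 2.65, SE 0.37, adjusted p = 0.014). Myoz2 had 2323 and 723 CPM, against 455.5 and 248 CPM (log2 change 2.08, SE 0.34, adjusted p = 0.0365). Each was higher in the Myh2-led fragments of both libraries.

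Fndc5, the irisin precursor (log2 change 2.59, SE 0.32, edgeR adjusted p = 0.00993), and Fxyd6, a sodium pump regulator (2.65, SE 0.40, adjusted p = 0.0219), were the other genes that rose in Myh2-led fragments. Between IIx/IIa and IIb neither passed, with log2 changes of 0.76 (adjusted p = 0.305) and 1.15 (adjusted p = 0.414). The genes that fell were Actn3, Mybpc2, Myl1 and Tceal7. Actn3 had 197 and 55.6 CPM in Myh2-led fragments of control 2 and 3, against 1996 and 3647 CPM in Myh1-led fragments (log2 change -3.86, SE 0.45, adjusted p = 0.00798). Mybpc2 had 8 and 0 UMIs, against 661 and 165 UMIs (log2 change -3.80, SE 0.53, adjusted p = 0.014). Myl1 had 15770 and 16350 CPM, against 33660 and 50590 CPM (log2 change -1.36, SE 0.21, adjusted p = 0.025), although it was level between IIx/IIa and IIb.

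Tceal7, a transcription elongation factor-like gene, had log2 changes of opposite sign in the 2 comparisons. It fell in Myh2-led fragments, with 131.5 and 167 CPM in control 2 and 3, against 972 and 534 CPM in Myh1-led fragments (log2 change -2.61, SE 0.44, edgeR adjusted p = 0.0386). In IIx/IIa it had 260, 791 and 430.5 CPM in control 1, 2 and 3, against 147, 105 and 78.7 CPM in IIb (log2 change 2.10, SE 0.43, adjusted p = 0.0586), and did not pass. The glycolytic enzymes Aldoa (log2 change -0.96, adjusted p = 0.0977), Ldha (-1.08, adjusted p = 0.201) and Gapdh (-0.84, adjusted p = 0.175) were lower in Myh2-led fragments without passing. Mb was 0.56 higher on the log2 scale (adjusted p = 0.411). The Myh2-led sum of control 3 rests on 6 barcodes. With a heavy chain share of at least 80% in place of 60%, no gene passed edgeR's threshold and 153 had an unadjusted p under 0.05, against 13 genes called by DESeq2 at the 60% limit.

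**Figure D5:**
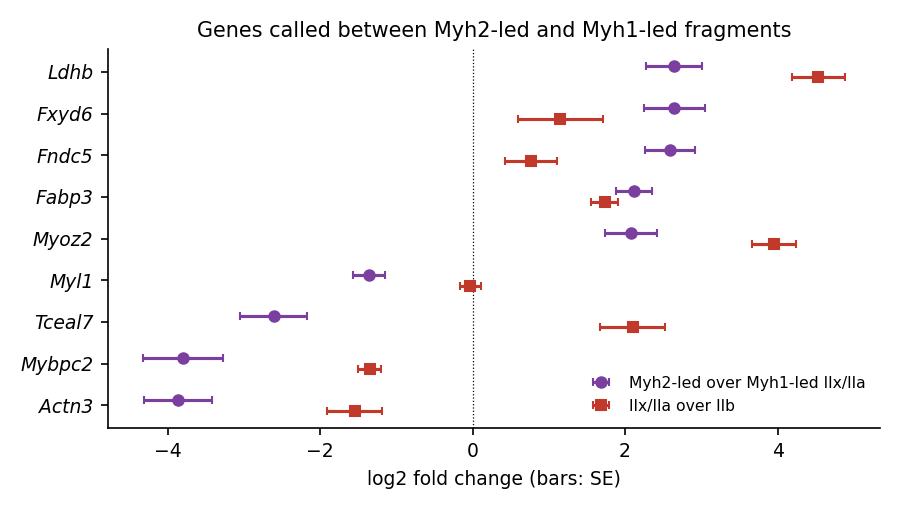
Log2 changes with SE of the 9 genes that passed between Myh2-led and Myh1-led IIx/IIa fragments (purple circles), with the same genes in IIx/IIa over IIb (red squares). Ldhb, Fabp3 and Myoz2 lie above 0 and Mybpc2 and Actn3 below 0 in both, while Tceal7 lies on opposite sides and Myl1 near 0 in IIx/IIa over IIb.

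The 5 frail IIx/IIa fragments held 14526 UMIs together, too few for a test between frail and control fragments. They carried 39 Myh1, 0 Myh2 and 2 Myh4 UMIs. Mb had 33 UMIs in frail 1 (9056 plain CPM, per 1000000 UMIs outside the rule genes, exact 95% Poisson interval 6234 to 12720) and 21 UMIs in frail 2 (2744 plain CPM, 1699 to 4195), against 11440, 10440 and 8576 plain CPM in control 1, 2 and 3. Fabp3 had 7 and 6 UMIs in frail 1 and 2 (1921 plain CPM, 772 to 3958, and 784 plain CPM, 288 to 1706), against 1927, 3001 and 1104 plain CPM in control 1, 2 and 3. Actn3 had 6 and 26 UMIs (1647 plain CPM, 604 to 3584, and 3397 plain CPM, 2219 to 4978), against 1488, 1538 and 2737 plain CPM. Ldhb had 5 and 0 UMIs (1372 plain CPM, 445.5 to 3202, and 0, 0 to 482), against 214, 531 and 206 plain CPM. In point values frail 1 was above every control library for Ldhb, with an interval that reached into that of control 2, and its intervals for Mb, Fabp3 and Actn3 overlapped the controls. Frail 2 was lower for Mb and Fabp3 and higher for Actn3 than every control library in its point value, and had no Ldhb UMI. Intervals cover counting error only and rest on 3 and 2 barcodes.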

How the data were processed

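Deposited UMI counts per gene and barcode come, per the file headers, from the authors' run of Cell Ranger 7.0.0, and the submitters' processing notes also list bcl2fastq, Seurat 4.1.2 and the build GRCm38. For annotation, barcode filter and use of strand, the sources used here give nothing. The labels name sorted nuclei and digested cells, and either preparation can set how many fibre fragments are captured. The lowest total of a deposited barcode was 500 UMIs. Positions come from GENCODE vM21 (52081 of 55357 gene identifiers matched, 94.1%) and promoters from RefSeq (GRCm38.p6, tables given with the reference).

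The fragments, gene lists and naming rule were chosen with earlier results of these data known. UMIs of fragments were summed per library and type, the 12 heavy chain and fibre genes and 37 mitochondrial genes left out, and compared by edgeR 4.0.16 in R 4.3.3 (filterByExpr, TMM, robust quasi-likelihood F test, library as a block, since both sums come from 1 animal). Log2 changes are IIx/IIa over IIb or Myh2-led over Myh1-led. Genes are named by rule: the 12 largest rises and 12 largest falls past the threshold (6 and 6 for Myh2-led) with average log2 CPM of at least 5, the same sign in each library and no clone name. Members of the 16 described lists may be named too, and a few list members that passed are not reported here. Shares were compared with exact permutation tests (scipy 1.17.1). No doublets were removed, which was tried as an alternative at 0.4% per 1000 barcodes by Scrublet score. DESeq2 1.42.0 and limma 3.58.1 were alternatives. The edgeR p-values rest on type differences within 3 animals for IIx/IIa against IIb and within 2 for Myh2-led fragments. With so few sums, the variance of a gene is drawn in part from the other genes tested, most of all for Myh2-led fragments. The permutation p-values of shares place the observed grouping among all choices of 2 of the 5 animals. Each type's sums differ in depth, so the lowest counts carry the largest error, and 1 barcode can hold the RNA of several fibres.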

Additional observations from a re-analysis of the deposited data

How the results depend on the processing

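Relative to the 201 genes called between IIx/IIa and IIb, edgeR called 199 with RLE factors, 195 with a share above 50%, 205 and 230 with mitochondrial limits of 20% and 5%, 156 without high Scrublet scores, and 255 with no filter on low counts (114 higher, 141 lower). It called 308 at a share of at least 80%, 67 with at least 10 heavy chain UMIs, 54 with fibre genes at 20% or more and, in an alternative chosen after seeing the data, 129 without fragments over 0.5% markers of other cells. DESeq2 called 90, and limma with fragments weighted equally 148. Leaving out a library gave 3 to 418, and 75 higher and 76 lower without control 2. The sign was kept by all 201 or all still tested, except 156 of 158 with fibre genes at 20% or more. With no replicate block, the pairing of sums from 1 animal dropped, 11 genes passed between IIx/IIa and IIb and 0 between Myh2-led and Myh1-led (136 at an unadjusted p under 0.05). For Myh2-led fragments, against 9 genes, edgeR called 0 at a share of at least 80%, 41 at a share above 50%, 24 with at least 10 heavy chain UMIs, 23 with at most 5% mitochondrial UMIs and 20 with Myh2 at 80% or more or 20% or less. With a mitochondrial limit of 20%, 11 of 56 oxidative phosphorylation genes stood higher in Myh2-led fragments (median log2 change -0.47). At the 10% limit 53 of 56 stood higher (median 0.32), so the direction of that list in Myh2-led fragments depended on the limit. The cause of these shifts was not tested. The genes named by rule kept their direction in all 367 values recomputed for IIx/IIa over IIb, of which 83 no longer passed, and in all 107 for Myh2-led fragments, of which 30 no longer passed. The settings share most of their fragments, and the rule asked for the same sign in each library. Kept direction was therefore largely set in advance.

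The frail minus control difference in share of typed fragments was -15.95 percentage points with at least 10 heavy chain UMIs and -11.49 with fibre genes at 20% or more, and -18.15 to 72.76 when a library was left out. The difference in share of retained barcodes kept its sign throughout, from -1.10 to -0.288.

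No paired analysis was possible between frail and control because replicate numbers only name animals and the 5 frail IIx/IIa fragments gave no test. Leaving out a library, or fibre genes at 20% or more, left no fit for Myh2-led fragments, and no frail library held 20 fragments of both types. Depth limits low genes: Myog, Scx and Slc66a2 rest on under 20 UMIs in several sums. Gadd45a aside, every gene named by rule that fell had at most 20 UMIs in each control IIx/IIa sum. Lgals3, for example, had 0, 15 and 6 UMIs in control 1, 2 and 3. DESeq2 gave no adjusted p for Slc66a2 or for the falls of Fmod, Aif1l, Smox, Wnt4, Zfp467, Ccdc6, Phlda1, Lgals3, Myhas and Scx.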

Other observations

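The genes below lie outside the described lists and were picked after their values between control IIx/IIa and IIb fragments were seen, so they are given as values and support no theme. Higher in IIx/IIa were Perm1, a muscle regulator of mitochondrial genes (log2 change 1.20, edgeR adjusted p = 0.0189), Coq10a, a coenzyme Q binding protein (1.09, adjusted p = 0.0021), the ketone body enzyme Oxct1 (0.89, adjusted p = 0.0196), and Tbc1d4, which gates glucose transporter vesicles (1.90, adjusted p = 0.0291). Also higher were the actin filament leiomodin Lmod2 (1.19, adjusted p = 0.00102), Lmcd1 (1.57, adjusted p = 0.000339) and Abra, which activates SRF signalling (1.30, adjusted p = 0.000565).

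Lower in IIx/IIa were Prkag3, the AMP-activated kinase subunit of glycolytic muscle, with 23.6, 19.0 and 8.44 CPM in control 1, 2 and 3, against 66.7, 68.9 and 13.6 CPM in IIb (log2 change -1.64, edgeR adjusted p = 0.0123). Its partner subunit Prkab2 (-0.98, adjusted p = 0.0485), the muscle fructose bisphosphatase Fbp2 (-1.49, adjusted p = 0.013) and the glycogen-binding protein Stbd1 (-1.60, adjusted p = 0.0175) fell with it.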
